A study of Mus musculus with 6 samples.

Results

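The 9 EphA receptor genes of the mouse were followed in retinal cells sorted to enrich retinal ganglion cells (RGCs), after overexpression of *Ezh2* or *GFP* and injury of the optic nerve. The rule took each gene by its mouse symbol, *Epha1* to *Epha8* and *Epha10*, from the table of read counts, and all 9 were found among its 55573 gene identifiers. Adult C57BL/6J mice of both sexes received AAV2-*GFP*, the control, or AAV2-*Ezh2* by injection into the vitreous, the optic nerve was crushed 2 weeks later, and cells were sorted 3 days after the crush. All mice thus carried a virus and a crushed nerve. Each group had 3 libraries, and values of single libraries are given in the order of replicates 1, 2 and 3. The sort kept live cells positive for CD90.2, a surface antigen encoded by *Thy1* that T cells also carry. Ezh2 is the methyltransferase of PRC2, a Polycomb complex that places the repressive mark H3K27me3 on histone H3.

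Eph receptors are receptor tyrosine kinases that bind ephrins on the surface of neighboring cells. The EphA class mainly binds ephrin-A ligands, which are held in the membrane by a lipid anchor. Binding clusters the receptors, and signaling inside the receptor-bearing cell acts through small GTPases and often makes a growth cone collapse or turn away. In the developing retina, graded EphA receptors, among them *Epha5* and *Epha6*, guide RGC axons to their places in the superior colliculus.

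The study left out 1 Ezh2 library, and its heatmaps show Ezh2 replicates 1 and 2, so the excluded library is inferred to be Ezh2 replicate 3. The main comparison therefore used 5 libraries. Values of all 6 are given beside it for each receptor and for some other genes and lists. A fold change or test result with no set of libraries stated is from the 5. Total counts ran from 30569933 to 35971192 per library. Levels are in CPM, counts scaled by the library's own total, and a count of 0 would allow up to 3 counts, or 0.0834 to 0.0981 CPM, counting error only. Across genes, Ezh2 replicate 3 correlated at 0.962 and 0.959 with Ezh2 replicates 1 and 2, which correlated at 0.988 with each other. *Ezh2* itself ranged from 28.8 to 34.6 CPM over the GFP libraries and from 65.3 to 104.8 CPM over the Ezh2 libraries. The labels call the cells RGCs. The RGC-defining transcription factor genes *Pou4f1*, *Pou4f2* and *Pou4f3* were each below 1 CPM in every library, and *Pou4f1* and *Pou4f2* were at 0 in 1 and 2 libraries. *Thy1*, the sort marker, was at 87.2 to 113.8 CPM, and the 11 RGC markers summed to 138.5 to 172.4 CPM. The 10 markers of Müller glia summed to 21500 to 28570 CPM, with *Glul*, glutamine synthetase, at 5446 to 9900 CPM. The levels below are therefore those of the sorted mixture. In such bulk samples, fewer cells of a type and less RNA per cell cannot be told apart. Nothing in the labels says that replicates were separate animals, so p-values measure the spread between these libraries.

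Compared to the control group, *Epha8*, *Epha7* and *Epha6* were lower and *Epha10* was higher after *Ezh2* overexpression. *Epha8* changed most, being 4.51-fold lower, followed by *Epha6* (2.63-fold lower) and *Epha7* (1.74-fold lower), while *Epha10* was 2.32-fold higher. *Epha5* and *Epha4*, the most abundant members, fell by 0.34 ± 0.05 and 0.28 ± 0.05 (SE) on the log2 scale, which is below a fold change of 1.5. *Epha1*, *Epha2* and *Epha3* did not pass the test. Calls required a fold change above 1.5 together with an adjusted p under 0.05 in the edgeR quasi-likelihood test. By that rule 4 of the 9 receptors were called, 3 lower and 1 higher, against 3.73% of the 20241 tested genes (1.27% lower, 2.45% higher). By adjusted p alone, 5 receptors were lower and 1 higher, against 16.5% of tested genes (7.07% lower and 9.38% higher). The median log2 fold change was -0.28 over the 9 receptors and -0.0078 over all tested genes. With all 6 libraries, 3 receptors were called lower (*Epha6*, *Epha7* and *Epha8*) and 0 higher, against 2.41% of 19732 tested genes (0.811% lower and 1.6% higher). By adjusted p alone, 4 receptors were lower and 0 higher in that fit, against 5% of tested genes (2.27% lower and 2.73% higher). In that fit the 0 higher calls were also 0 by DESeq2 on the 5 libraries, while limma-voom called 1, and 6 of 9 receptors had an unadjusted p under 0.05. The median over the receptors was then -0.38.

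**Figure D1:**
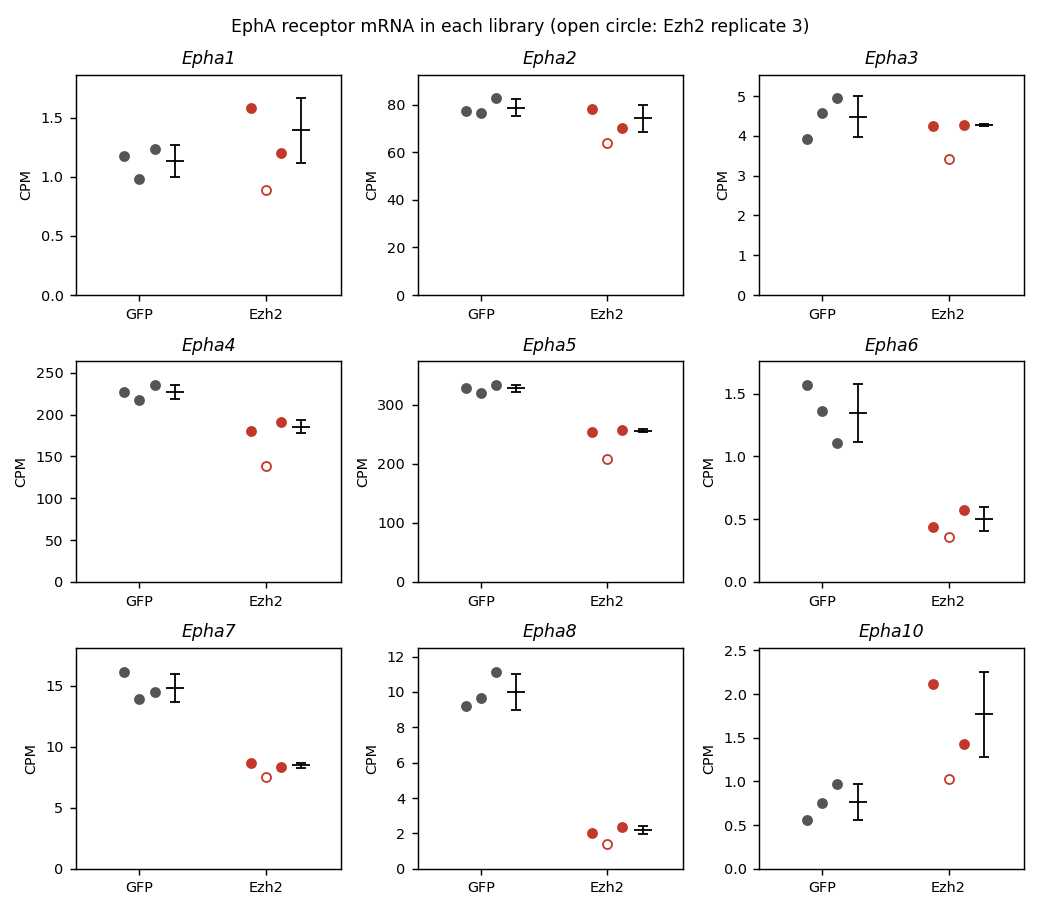
Level of each EphA receptor (CPM, vertical axis from 0) in the 3 GFP libraries (gray) and the Ezh2 libraries (red, with replicate 3 as an open circle). Bars beside the points give mean ± SD for GFP (n = 3) and Ezh2 replicates 1 and 2 (n = 2). The Ezh2 points of Epha4, Epha5, Epha6, Epha7 and Epha8 lie below all GFP points, and those of Epha10 lie above them.

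The promoters of 4 members are shown because they set the receptor with the largest fall beside a called, a smaller and an undetected change. They were picked with the fold changes known, and *Epha6*, which fell more than *Epha7*, is not among them. The stretches are the 250 bases before the transcription start, read 5′ to 3′ on the strand of the gene, from RefSeq on build GRCm38.p6, with CG dinucleotides in capitals. *Epha8* lies at chr4:136956817-136957066 (minus strand), *Epha7* at chr4:28812881-28813130 (plus strand), *Epha5* at chr5:84417383-84417632 (minus strand) and *Epha2* at chr4:141300971-141301220 (plus strand). None of these 4 windows overlaps an annotated exon. *Epha7* has another RefSeq start, not shown. Its window, chr4:28812895-28813144, held 23 CG dinucleotides and had 14 bases in an *Epha7* exon.
Epha8: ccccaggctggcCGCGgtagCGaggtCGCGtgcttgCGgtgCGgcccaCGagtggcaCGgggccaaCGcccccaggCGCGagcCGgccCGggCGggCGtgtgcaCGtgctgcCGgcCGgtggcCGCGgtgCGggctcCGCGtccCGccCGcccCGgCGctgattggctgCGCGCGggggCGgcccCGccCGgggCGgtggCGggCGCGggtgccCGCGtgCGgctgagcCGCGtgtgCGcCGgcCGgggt
Epha7: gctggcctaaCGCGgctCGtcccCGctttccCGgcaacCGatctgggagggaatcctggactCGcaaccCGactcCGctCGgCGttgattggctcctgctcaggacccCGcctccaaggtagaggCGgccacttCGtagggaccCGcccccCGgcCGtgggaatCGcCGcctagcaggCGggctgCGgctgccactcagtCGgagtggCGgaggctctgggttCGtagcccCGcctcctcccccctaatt
Epha5: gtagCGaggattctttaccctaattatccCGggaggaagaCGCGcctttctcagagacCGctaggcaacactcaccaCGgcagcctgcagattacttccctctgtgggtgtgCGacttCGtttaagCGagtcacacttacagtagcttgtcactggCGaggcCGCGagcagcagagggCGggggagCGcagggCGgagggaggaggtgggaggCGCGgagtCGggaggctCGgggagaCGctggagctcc
Epha2: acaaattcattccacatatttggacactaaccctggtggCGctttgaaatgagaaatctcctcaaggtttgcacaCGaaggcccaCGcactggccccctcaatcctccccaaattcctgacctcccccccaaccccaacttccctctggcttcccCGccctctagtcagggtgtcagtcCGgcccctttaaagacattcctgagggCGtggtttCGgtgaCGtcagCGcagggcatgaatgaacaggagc

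The *Epha8* window held 46 CG dinucleotides and 84.0% G and C. Of 27025 RefSeq promoters of this length, 1 per gene, 0.3% held as many CG dinucleotides. The median promoter held 6 CG dinucleotides and 52.0% G and C. *Epha7* followed with 25 and *Epha5* with 20, counts reached by 10.3% and 17.7% of promoters. *Epha3*, *Epha6* and *Epha4* held 16, 15 and 14, and *Epha1* and *Epha2* held 9 each, a count reached by 40.7%. The window of *Epha10* held 17 but lies within exons of *Epha10* itself, from another start, so it is not shown. All 9 windows were thus above the median promoter, and their order by CG count was not their order by fold change, since *Epha6* fell more than *Epha7*. The letters GGGCGG, a GC box searched on both strands, occurred 5 times in the *Epha8* window, and 32.9% of promoters held at least 1. The letters TATAAA were found on either strand in none of the 9 windows and in 13.0% of promoters. These matches describe the sequence only.

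**Figure D2:**
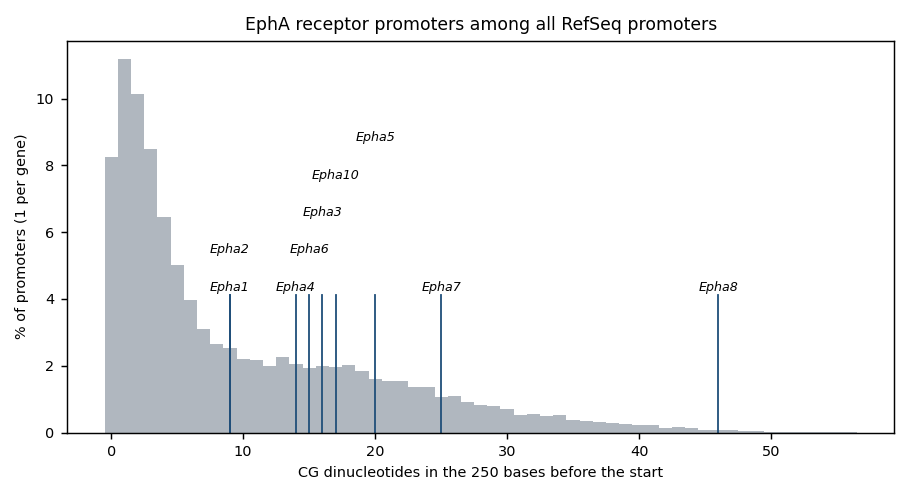
Number of CG dinucleotides in the 250 bases before the start (horizontal axis) for all 27025 RefSeq promoters, as a percent of promoters (bars), with a line at the count of each EphA receptor. Epha8, at 46, stands at the right edge of the distribution, and the other 8 receptors lie between 9 and 25.

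Receptors of the retinal map were examined first. *Epha5* (ENSMUSG00000029245, chromosome 5, 84054761 to 84417382, minus strand, GRCm38) encodes one of the graded receptors of the retinocollicular map. It reached 328.7, 320.3 and 333.1 CPM over the GFP libraries, whereas the Ezh2 libraries had 254.4, 257.4 and 207.4 CPM. Every Ezh2 library lay below every GFP library, and Ezh2 replicate 3 was the lowest. The mean was 327.4 ± 6.53 CPM (SD, n = 3) in the GFP group and 255.9 ± 2.10 CPM (SD, n = 2) in Ezh2 replicates 1 and 2. The log2 fold change was -0.34 ± 0.05 (SE; edgeR adjusted p = 1.243e-04), and -0.41 ± 0.08 with all 6 libraries (edgeR adjusted p = 0.02513). From the 6 libraries, leaving out GFP replicate 1, 2 or 3 or Ezh2 replicate 1 ended this, with edgeR adjusted p of 0.1374, 0.1212, 0.1553 and 0.05631.

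*Epha6* (ENSMUSG00000055540, chromosome 16, 59653483 to 60605531, minus strand) encodes another graded receptor of retinal axons. It was rare, with 48, 43 and 34 counts over the GFP libraries and 14, 20 and 13 over the Ezh2 libraries. In CPM these were 1.57, 1.36 and 1.11 against 0.435, 0.571 and 0.361, and the groups did not overlap. The exact Poisson intervals (95%) of the lowest GFP count, 23.5 to 47.5, and of the highest Ezh2 count, 12.2 to 30.9, did overlap. Its log2 fold change was -1.40 ± 0.41 (edgeR adjusted p = 0.02849), and -1.52 ± 0.33 with all 6 libraries (edgeR adjusted p = 0.04041). Its call was lost on leaving out GFP replicate 1, GFP replicate 2, Ezh2 replicate 1 or Ezh2 replicate 2 from the 5 libraries, with edgeR adjusted p of 0.07085, 0.06228, 0.1615 and 0.07993. From the 6 libraries, leaving out any of GFP replicates 1 to 3 or Ezh2 replicates 1 and 2 ended it too, with edgeR adjusted p from 0.06341 to 0.1696. Its exons share 107 bases with the antisense gene *Gm9017*, and the use of strand in counting is not given in the sources used here.

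*Epha7* (ENSMUSG00000028289, chromosome 4, 28813131 to 28967499, plus strand) encodes an ephrin-A receptor that guides axons in several brain maps. It reached 16.1, 13.9 and 14.5 CPM over the GFP libraries, whereas the Ezh2 libraries had 8.63, 8.31 and 7.48 CPM. The 3 Ezh2 libraries lay close together, and all were below the lowest GFP library. The log2 fold change was -0.80 ± 0.12 (edgeR adjusted p = 1.791e-04), with a 95% interval of -1.05 to -0.55, and -0.83 ± 0.12 with all 6 libraries (edgeR adjusted p = 0.01105). The call stood with each of the 5 libraries left out. With 6 libraries, it was lost without GFP replicate 1, 2 or 3, where the edgeR adjusted p was 0.08464, 0.06006 and 0.07915.

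*Epha4* (ENSMUSG00000026235, chromosome 1, 77367185 to 77515088, minus strand) encodes a receptor that binds both ephrin-A and ephrin-B ligands and is known as an inhibitor of axon growth after injury. It reached 227.3, 217.9 and 235.4 CPM over the GFP libraries, whereas the Ezh2 libraries had 179.9, 191.4 and 139.1 CPM. The groups did not overlap, although Ezh2 replicate 3 lay far below the other Ezh2 libraries. Means were 226.9 ± 8.76 CPM for GFP (SD, n = 3) and 185.7 ± 8.11 CPM for Ezh2 replicates 1 and 2 (SD, n = 2), and the difference was -0.28 ± 0.05 in log2 (edgeR adjusted p = 0.002142). With all 6 libraries the log2 fold change was -0.38 ± 0.10 and did not pass the test (edgeR adjusted p = 0.07136). Without Ezh2 replicate 2 of the 6 it did (edgeR adjusted p = 0.04963).

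*Epha3* (ENSMUSG00000052504, chromosome 16, 63543534 to 63864175, minus strand) encodes a receptor of the same class that is graded in the retina of the chick. It was at 3.93, 4.58 and 4.95 CPM over the GFP libraries, whereas the Ezh2 libraries had 4.25, 4.28 and 3.42 CPM. Ezh2 replicates 1 and 2 lay within the GFP range and replicate 3 below it. Its log2 fold change of -0.060 ± 0.19 (edgeR adjusted p = 0.8799) had a 95% interval of -0.47 to 0.35, which does not exclude a moderate change in either direction. With all 6 libraries the log2 fold change was -0.13 ± 0.18 (edgeR adjusted p = 0.6692).

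*Epha8* (ENSMUSG00000028661, chromosome 4, 136929419 to 136956816, minus strand) encodes an ephrin-A receptor of the nervous system. It had 282, 305 and 342 counts over the GFP libraries, whereas the Ezh2 libraries had 65, 83 and 50 counts. In CPM these were 9.22, 9.64 and 11.1 against 2.02, 2.37 and 1.39. The lowest GFP library was well above the highest Ezh2 library, and Ezh2 replicate 3 was the lowest of all. The mean was 9.996 ± 1.001 CPM (SD, n = 3) in the GFP group and 2.19 ± 0.248 CPM (SD, n = 2) in Ezh2 replicates 1 and 2. The log2 fold change was -2.17 ± 0.18 (95% interval -2.55 to -1.79, edgeR adjusted p = 5.369e-07), and -2.34 ± 0.21 with all 6 libraries (edgeR adjusted p = 0.001844). *Epha8* was called under all 20 alternative fits, with log2 fold changes from -2.51 to -2.05.

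*Epha2* (ENSMUSG00000006445, chromosome 4, 141301240 to 141329384, plus strand) and *Epha1* (ENSMUSG00000029859, chromosome 6, 42358487 to 42373268, minus strand) encode receptors best known from epithelia. *Epha2* was at 77.2, 76.4 and 82.8 CPM over the GFP libraries, whereas the Ezh2 libraries had 78.4, 70.4 and 64.0 CPM. Ezh2 replicate 1 lay within the GFP range and the others below it. *Epha2* gave a log2 fold change of -0.073 ± 0.06 (edgeR adjusted p = 0.4915), with a 95% interval of -0.21 to 0.061. The estimate for *Epha4*, -0.28, lay outside this interval, but the interval of *Epha4*, -0.39 to -0.16, overlapped it. No test compared these receptors. With all 6 libraries the interval of *Epha2*, -0.30 to 0.070, was wider. *Epha1* was at 1.18, 0.979 and 1.24 CPM against 1.58, 1.20 and 0.890 CPM, with both groups overlapping. The log2 fold change of *Epha1* was 0.31 ± 0.34 (edgeR adjusted p = 0.6103), with a 95% interval of -0.42 to 1.03, and 236 bases of its exons overlap the antisense gene *Zyx*. With all 6 libraries the log2 fold change of *Epha1* was 0.14 ± 0.30 (edgeR adjusted p = 0.7898).

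*Epha10* (ENSMUSG00000028876, chromosome 4, 124880899 to 124917800, plus strand) encodes a member whose kinase domain is thought to be inactive. It had 17, 24 and 30 counts over the GFP libraries, whereas the Ezh2 libraries had 68, 50 and 37 counts. In CPM these were 0.556, 0.758 and 0.976 against 2.11, 1.43 and 1.03. The groups did not overlap, but Ezh2 replicate 3 was only slightly above the highest GFP library. For *Epha10* the log2 fold change was 1.21 ± 0.37 (edgeR adjusted p = 0.03355). With all 6 libraries it was 1.02 ± 0.36 and did not pass the test (edgeR adjusted p = 0.1339), nor did it with DESeq2 on the 5 libraries (adjusted p = 0.05632). Leaving out GFP replicate 1, GFP replicate 2, Ezh2 replicate 1 or Ezh2 replicate 2 from the 5 libraries gave edgeR adjusted p of 0.08226, 0.07209, 0.2852 and 0.05491. Its exons share 79 bases with the antisense gene *1700125G02Rik*.

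In all, 6 of 9 receptors had CPM values that did not overlap between the groups, 5 with the Ezh2 group lower and 1 with it higher, in the 5 and in the 6 libraries. Over all tested genes this was so for 44.9% with 5 libraries (23.4% lower and 21.5% higher) and for 34.2% with 6 (19.3% lower and 14.9% higher). The receptors ranged widely in abundance, so the test was much more precise for *Epha5* than for *Epha6*, *Epha1* or *Epha10*.

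**Figure D3:**
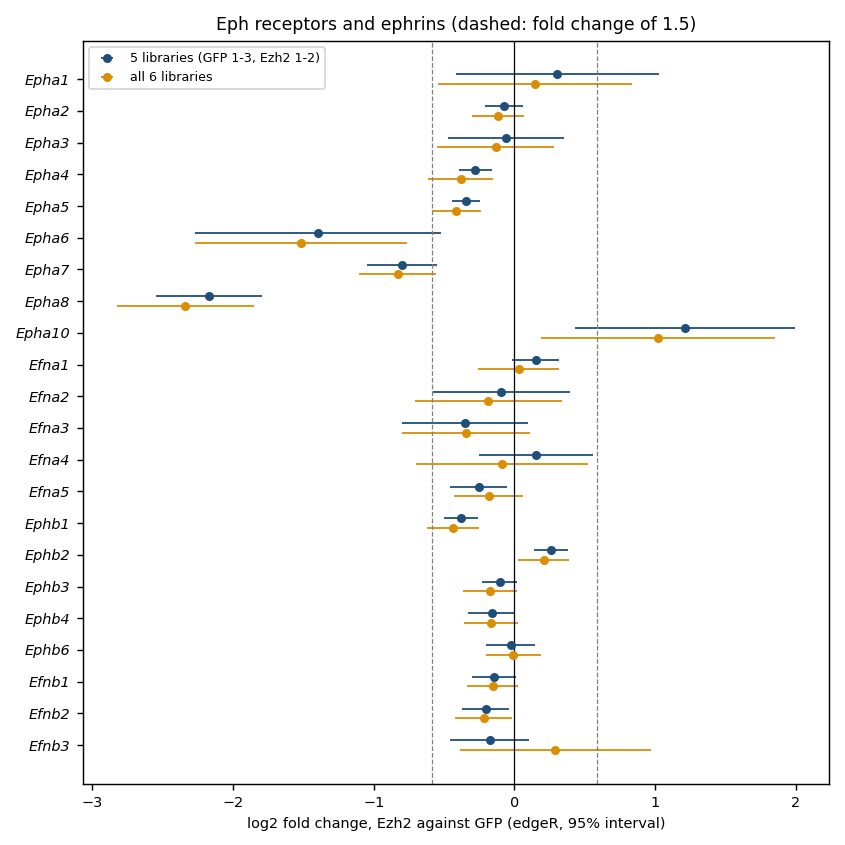
Log2 fold change of the 22 Eph receptors and ephrins, Ezh2 against GFP, with 95% intervals, from the 5 libraries (blue) and all 6 (orange); dashed lines mark a fold change of 1.5. Epha8 lies farthest left at -2.17 and Epha10 farthest right at 1.21, while the points of all ephrins lie between the dashed lines in both fits.

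To compare levels between receptors, counts were divided by exon length (RPKM, CPM per kilobase of exon). In the GFP group *Epha4* led at 27.1 to 29.2 RPKM, followed by *Epha5* at 19.1 to 19.9 RPKM and *Epha2* at 16.3 to 17.7 RPKM. Below them came *Epha8* at 1.96 to 2.36 RPKM and *Epha7* at 1.41 to 1.63 RPKM. *Epha3*, *Epha1*, *Epha6* and *Epha10* were all below 0.57 RPKM. The ranges of *Epha1* and *Epha6* overlapped, and no other neighbors in this order did. In Ezh2 replicates 1 and 2, *Epha8* ranked 6 by mean RPKM, after ranking 4 in the GFP group, and *Epha2* stood above *Epha5*.

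The 9 receptors summed to 69.1, 67.1 and 71.9 RPKM over the GFP libraries and to 56.9, 56.6 and 45.2 RPKM over the Ezh2 libraries. The sum was lower in every Ezh2 library. *Epha4*, *Epha5* and *Epha2* made up most of it, and the share of *Epha4* was 40.6% ± 0.273 (SD, n = 3) in the GFP group and 40.6% ± 1.89 (SD, n = 2) in Ezh2 replicates 1 and 2. The share of *Epha8* went from 3.05% ± 0.226 to 0.820% ± 0.0951, and that of *Epha7* from 2.17% ± 0.172 to 1.51% ± 0.0368. The share of *Epha2* went from 24.3% ± 0.369 to 28.04% ± 2.05. So the most strongly changed receptors were minor parts of the summed level.

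**Figure D4:**
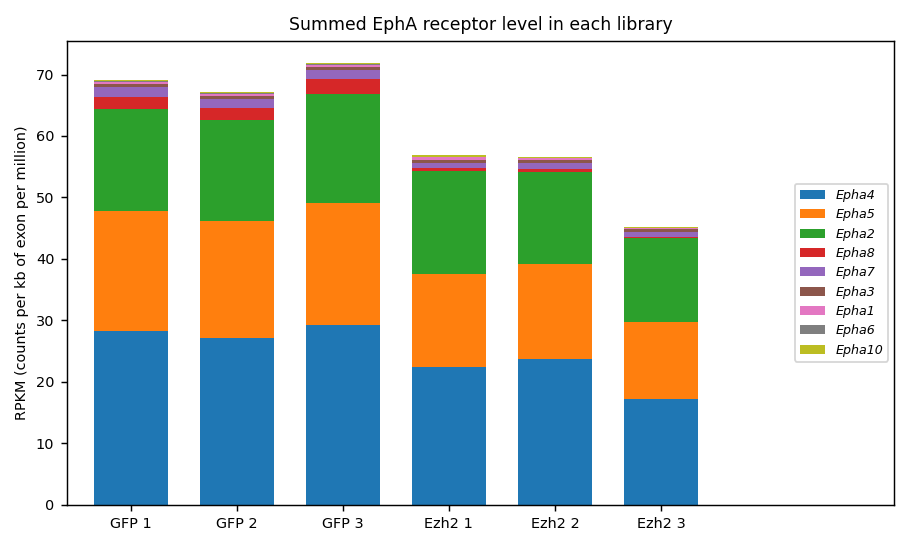
Summed level of the 9 EphA receptors (RPKM, stacked bars from 0) in each library, with 1 color per receptor. The bars reach 67.1 to 71.9 in the GFP libraries and 45.2 to 56.9 in the Ezh2 libraries, and Epha4, Epha5 and Epha2 fill most of each bar.

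The ligands were examined next. The 5 ephrin-A genes were detected in every library, and in edgeR 0 of 5 were called or passed the adjusted p, with 1 at an unadjusted p under 0.05 and 0 called by DESeq2 or limma-voom. *Efna1* was the most abundant in counts, at 24.1 to 25.9 CPM in the GFP group and 19.5 to 27.6 CPM in the Ezh2 group. *Efna5*, a main ephrin of the collicular gradient, was at 19.8 to 20.8 CPM against 15.7 to 18.3 CPM, with a log2 fold change of -0.25 ± 0.10 (edgeR adjusted p = 0.08523). Its groups did not overlap, but it did not pass the test. With all 6 libraries the log2 fold change of *Efna5* was -0.18 ± 0.11 (edgeR adjusted p = 0.3196). The log2 fold changes of *Efna1*, *Efna2*, *Efna3* and *Efna4* were 0.15, -0.092, -0.35 and 0.15.

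Among the 5 EphB receptors, which bind the transmembrane ephrin-B ligands, edgeR called 0, 2 had an unadjusted p under 0.05, and DESeq2 and limma-voom called 0. *Ephb1*, which directs ipsilateral RGC axons at the optic chiasm, was at 130.7, 134.7 and 146.3 CPM in GFP replicates 1 to 3 and at 106.7, 102.7 and 87.5 CPM in Ezh2 replicates 1 to 3. The groups did not overlap. Its log2 fold change of -0.38 ± 0.06 (edgeR adjusted p = 2.687e-04) was below the fold threshold, and it was -0.43 ± 0.08 with all 6 libraries (edgeR adjusted p = 0.02571), where leaving out a library gave edgeR adjusted p from 0.04686 to 0.1612. *Ephb2* moved the other way, from 90.1 to 98.8 CPM in the GFP group to 110.4, 111.2 and 93.4 CPM over the Ezh2 libraries. Its log2 fold change was 0.26 ± 0.06 (edgeR adjusted p = 0.005019), but Ezh2 replicate 3 lay within the GFP range and the 6 libraries did not pass (edgeR adjusted p = 0.1514). *Ephb3*, *Ephb4* and *Ephb6* had log2 fold changes of -0.10, -0.16 and -0.027 and did not pass. The 3 ephrin-B genes *Efnb1*, *Efnb2* and *Efnb3* had log2 fold changes of -0.15, -0.20 and -0.18, with 0 called in edgeR, 1 at an unadjusted p under 0.05, and 0 called by DESeq2 or limma-voom.

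Of 24 genes that act downstream of Eph receptors, edgeR called 0, 8 had an unadjusted p under 0.05, and DESeq2 and limma-voom called 0. By adjusted p, 4 were lower and 0 higher. These were *Ngef*, the exchange factor ephexin-1 that binds EphA receptors, at -0.34 ± 0.09, *Sipa1l1*, a Rap GTPase activating protein, at -0.36 ± 0.05, and the Rac activators *Elmo2* and *Dock4* at -0.16 ± 0.05 and -0.20 ± 0.06 (log2 fold change ± SE). With all 6 libraries, *Sipa1l1* alone of them passed (edgeR adjusted p = 0.02683). The median log2 fold change over the 24 genes was -0.085, and -0.011 with all 6 libraries.

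Of 10 genes for the dephosphorylation, internalization or cleavage of Eph receptors, edgeR called 0, 5 had an unadjusted p under 0.05, and DESeq2 and limma-voom called 0. By adjusted p, 4 were higher and 0 lower. These were the tyrosine phosphatase genes *Ptpro* at 0.57 ± 0.13 and *Ptpn1* at 0.46 ± 0.05, *Inppl1*, which encodes the lipid phosphatase SHIP2, at 0.23 ± 0.05, and the adaptor gene *Anks1* at 0.23 ± 0.06 (log2 fold change ± SE). *Ptpro* and *Ptpn1* encode enzymes known to dephosphorylate Eph receptors. *Ptpn1* was at 105.7, 110.7 and 110.9 CPM over the GFP libraries, whereas the Ezh2 libraries had 148.8, 148.5 and 163.1 CPM, with no overlap. It was the only one of these 4 to pass with all 6 libraries (log2 fold change 0.53 ± 0.08, edgeR adjusted p = 0.0118). Without GFP replicate 2 or Ezh2 replicate 1 of the 5 libraries, 1 gene of this list, *Ptpro*, was called.

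Of the 3 co-receptors through which ephrin-A ligands signal in reverse, *Ngfr*, the p75 neurotrophin receptor gene, passed the adjusted p. It was at 207.2 to 214.0 CPM in the GFP group and at 137.3 to 165.4 CPM in the Ezh2 group, a log2 fold change of -0.37 ± 0.05 (edgeR adjusted p = 7.768e-05). All 3 co-receptor genes had an unadjusted p under 0.05, 2 of them with a log2 fold change below 0. EdgeR, DESeq2 and limma-voom called 0 of them. Among 7 transcription factors of the retinal map, 5 had enough counts to be tested. In edgeR 0 of the 5 were called or passed the adjusted p, 1 had an unadjusted p under 0.05, and DESeq2 and limma-voom called 0.

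Genes whose profile over the 6 libraries was most like that of *Epha8* were found by the distance between centered log2 CPM profiles, among 13770 genes with at least 100 counts on average. The closest were *Kcnj5*, which encodes a potassium channel subunit, *Slc6a5*, which encodes the neuronal glycine transporter GlyT2, *Crhbp*, *Csmd3* and *Pcsk6*. The distances were 0.306, 0.367, 0.560, 0.599 and 0.638. *Kcnj5* was at 5.24 to 5.50 CPM in the GFP group and at 0.778 to 1.14 CPM in the Ezh2 group, and *Slc6a5* was at 5.005 to 5.694 CPM against 0.806 to 1.40 CPM. The likeness is a description over 6 libraries that share their groups, chosen after the values were seen, and carries no test.

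Markers of cell types moved with the groups too, and their part in the receptor values was not tested. Among Müller glia markers, 7 of 10 were lower by adjusted p and 1 was higher, with a median log2 fold change of -0.23. Their summed level was 27930 to 28570 CPM in the GFP group and 21500 to 27730 CPM in the Ezh2 group. The 7 lower markers included *Glul* (-0.49), *Rlbp1* (-0.31) and *Kcnj10* (-0.28), and the 1 higher was *Apoe*. Among amacrine cell markers, 3 of the 8 tested were lower and 0 higher, and their sum was 509.4 to 530.0 CPM against 398.4 to 450.6 CPM. The median log2 fold change over these 8 was -0.35, with 6 below 0. *Tfap2b*, an amacrine transcription factor gene, was the 1 marker called, at -2.72 ± 0.24. With all 6 libraries, 4 Müller glia markers were lower by adjusted p and 1 was higher, and 2 amacrine markers were lower and 0 higher. The 9 endothelial and mural markers summed to 3570 to 3734 CPM in the GFP group and 2657 to 3334 CPM in the Ezh2 group. By adjusted p, 1 of these 9 was lower and 0 higher in both fits. Their median log2 fold change was 0.072, and -0.013 with all 6 libraries. The sum of the RGC markers was 138.5 to 142.2 CPM in the GFP group and 157.6 to 172.4 CPM in the Ezh2 group. *Thy1*, the sort marker that T cells also carry, made up most of this sum. By adjusted p, 3 of the 9 tested RGC markers were higher and 0 lower.

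Counts were also scaled to the summed RGC markers in place of all genes, a scale set mostly by *Thy1*. *Epha8* had 64.9, 69.6 and 78.9 counts per 1000 RGC marker counts over the GFP libraries, and 11.8, 15.04 and 8.06 over the Ezh2 libraries. *Epha5* had 2311, 2312 and 2363 against 1484, 1633 and 1203. The groups stayed apart for these genes. *Epha10* had 3.91, 5.47 and 6.92 against 12.3, 9.06 and 5.97, so on this scale its groups overlapped, with Ezh2 replicate 3 below GFP replicate 3. The fit on this scale used the 5 libraries, without Ezh2 replicate 3. It called the same 4 receptors, *Epha10* at an edgeR adjusted p of 0.04845. The median log2 fold change was -0.51 over the receptors and -0.24 over all tested genes. *Epha2*, at -0.31, passed the test on this scale (edgeR adjusted p = 0.002646), a value close to that shift of all genes.

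**Figure D5:**
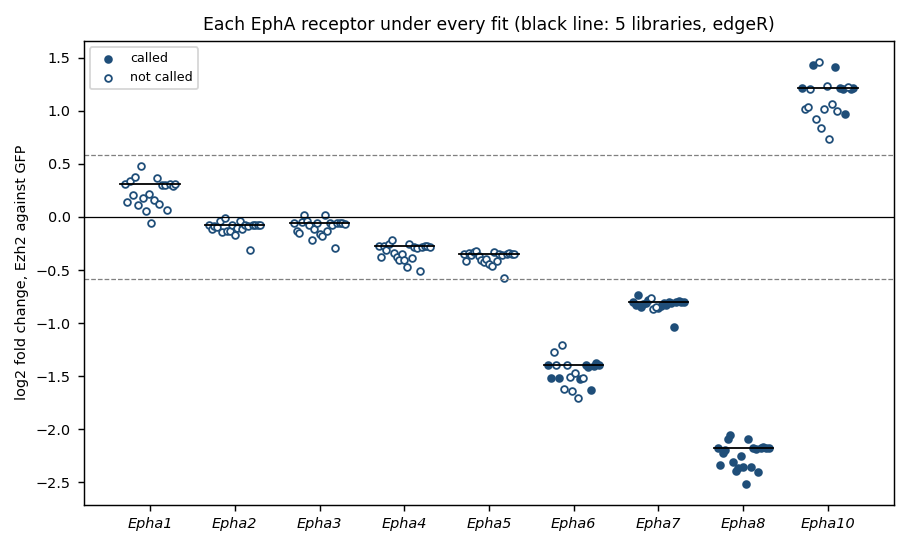
Log2 fold change of each EphA receptor (vertical axis) under the 5-library fit (black line) and every alternative fit (circles, filled where called); dashed lines mark a fold change of 1.5. Epha8 is called in all fits, between -2.51 and -2.05, whereas Epha6 and Epha10 have open circles in many fits and Epha3 lies on both sides of 0.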

How the data were processed

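Sorted retinal cells of 3 GFP and 3 Ezh2 libraries were profiled by RNA-Seq of total RNA with a stranded kit. The table deposited by the authors holds raw read counts per Ensembl gene. The submitters' processing notes name STAR 2.7.0d and build GRCm38. The counting program, strand setting and annotation release are not given in the sources used here. Symbols, coordinates and exon lengths came from GENCODE M21 (55480 of 55573 identifiers matched), and promoters from RefSeq (all 9 receptors matched).

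Counts were filtered with filterByExpr, scaled by TMM and fitted with edgeR 4.0.16 (quasi-likelihood F test, group only, two-sided) in R 4.3.3. P values were adjusted by the Benjamini-Hochberg method over all tested genes, and all 9 receptors passed the filter. Calls needed a fold change above 1.5 and an adjusted p under 0.05. SEs came from the F statistic. CPM used library totals, profiles a prior count of 2. Floors and Poisson intervals cover counting error only, since reads carry no molecular identifiers.

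The receptors, the lists of other Eph genes (57) and the marker lists (14, with 109 genes) were chosen with earlier results of these data known, and the study singled out some of these receptors on these same libraries. Named were the receptors, all ephrins and EphB receptors, listed genes with an adjusted p under 0.05, *Ezh2*, and the 5 genes most like the called receptor with the largest change. Other marker genes named were chosen after their values were seen. Not every gene of the rod and microglia lists is reported here, and the counts and sums of these lists are left out.

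Other fits used all 6 libraries, left out each library in turn, or had the replicate number as a block. Further alternatives were RLE factors, library totals, scaling to RGC markers, DESeq2 1.42.0, limma-voom (limma 3.58.1), no filter, a mean of at least 50 counts, and no fold threshold. The fits were tested on simulated counts. Pictures were drawn with matplotlib 3.10.9.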

Additional observations from a re-analysis of the deposited data

Results flagged for a closer look

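*Efnb3*, which encodes the ligand ephrin-B3, reached 19.2 CPM in Ezh2 replicate 3, the library outside the main comparison. This was more than 1.5-fold above each other library, since *Efnb3* was at 9.34 to 11.8 CPM in the GFP libraries and at 9.78 and 9.16 CPM in Ezh2 replicates 1 and 2. There is no other library like it, so the value has no replicate.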

How the results depend on the processing

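*Epha8* was called under every alternative, and *Epha7* under all but the 6-library fits without a GFP library. The called receptors, 4 in the main comparison, numbered 2 to 4 with 1 of the 5 libraries left out and 1 to 2 with 1 of the 6 left out. Calls over all genes moved too, from 754 to between 597 and 755 and to between 93 and 386. Of the called receptors, 2 to 3 and 1 to 2 were lower and 0 to 1 and 0 were higher. A mean of at least 50 counts removed *Epha1*, *Epha6* and *Epha10* before the test and left 2 called receptors, and adjusted p alone gave 5 lower. The higher call, *Epha10*, was 0 with all 6 libraries, DESeq2 and the 50-count filter. Receptors passing the adjusted p, 6 in the main comparison, were 4 to 6 and 1 to 4 with a library left out of the 5 and the 6. Their median of -0.28 was -0.38 with all 6 libraries, -0.51 scaled to RGC markers, and -0.34 to -0.22 and -0.46 to -0.35 with a library left out of the 5 and the 6. Other Eph genes called, 0 in the main comparison, were 4 scaled to RGC markers, 10 by adjusted p alone and 0 to 1 with a library left out. RGC scaling moved all genes from 258 lower and 496 higher to 1333 and 265.

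Same-numbered libraries did not deviate together (correlations -0.027, -0.022 and -0.034). The deviations were taken from group means that include Ezh2 replicate 3, the library least like the others. These correlations therefore cannot exclude that the numbers pair the samples. With the replicate block, 4 receptors were called on the 5 libraries. On all 6 libraries the block gave 2 calls, both lower and 0 higher, 2 receptors passing the adjusted p, and a median of -0.39, while calls over all 19732 genes went from 476 to 274.

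Signs turned only for genes that passed no test in the main comparison. *Epha3* was 0.019 with the block on the 5 libraries and -0.22 to 0.015 with a library left out, and *Epha1* was -0.061 to 0.48 with a library left out. *Efna1* was -0.084 with RGC scaling and -0.038 to 0.18 with a library left out. *Efna2* was -0.35 to 0.040 and *Ephb6* -0.062 to 0.013 with a library left out. *Efna4* was -0.087 with all 6 libraries, -0.13 with the block on them, -0.081 with RGC scaling and -0.25 to 0.25 with a library left out. *Efnb3* was 0.29 with all 6 libraries, 0.20 with the block on them and -0.27 to 0.49 with a library left out. The causes were not tested. Counts of 13 to 68 limit the precision for *Epha6* and *Epha10*.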

Other observations

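Several markers of other cell types passed the adjusted p in the 5 libraries (edgeR). Among photoreceptor genes, 8 of 9 cone markers were higher and called: *Gngt2*, *Gnat2*, *Arr3*, *Opn1mw*, *Pde6c*, *Pde6h*, *Opn1sw* and *Cnga3*, with log2 fold changes from 0.87 to 1.99. The rod genes *Sag*, *Gnat1*, *Nr2e3*, *Pde6a* and *Cnga1* were higher too, from 0.42 to 0.69. Of the Müller glia markers, *Abca8a*, *Glul*, *Rlbp1*, *Kcnj10*, *Dkk3*, *Aqp4* and *Slc1a3* were lower and *Apoe* was higher (0.72), and *Gfap*, an astrocyte marker that reactive glia also express, was higher (1.01). Of the amacrine markers, *Slc6a9* and *Pax6* were lower beside *Tfap2b*. Of the RGC markers, *Thy1*, *Nefl* and *Nefh* were higher (0.22 to 0.72).

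Of the immune markers, 9 of 10 T cell genes were higher (*Lck*, *Cd2*, *Cd3e*, *Trac*, *Cd28*, *Cd3g*, *Cd3d*, *Cd8b1* and *Cd8a*), with *Cd8a* at 1.38. The microglia genes *Csf1r*, *Cx3cr1*, *C1qa*, *C1qc*, *C1qb* and *Trem2* were higher, from 0.26 to 0.91. *Flt1*, an endothelial gene, was lower (-0.29), and *Mitf*, a pigment cell gene, was higher (0.40). With all 6 libraries 2 of the 9 cone markers and 3 T cell genes were higher by adjusted p, as was *Trem2*, whereas the other rod and microglia genes named here did not pass. In the 5 libraries edgeR passed 0 of 9 bipolar, 0 of 1 horizontal, 0 of 6 B and plasma cell and 0 of 3 epithelial markers tested, of which 3, 0, 2 and 0 had an unadjusted p under 0.05, and DESeq2 and limma-voom called 0.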
